A study of Apis mellifera with 6 samples.

Results

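Transcripts of 4 chaperone genes, Hsp90, Hsc70-3, Hsc70-4 and Hsc70-5, were examined in midguts of the honey bee, Apis mellifera, taken from adults. They were taken by gene symbol from the 10041 genes listed for each library, and 4 of 4 were found. They were grouped by the cell compartment in which the protein works, which is the mitochondrion for Hsc70-5, the endoplasmic reticulum for Hsc70-3 and the cytosol for Hsc70-4 and Hsp90. The compartments are those known for the genes of these names in Drosophila and were not measured here.

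The halofuginone group was fed sucrose solution with 200 µM halofuginone and 0.5% DMSO for 24 h, and the control group was fed the same solution with 0.5% DMSO alone, so both groups carried the solvent. Halofuginone blocks the enzyme that loads proline onto its tRNA, and the study used it to trigger the integrated stress response (ISR). Each group had 3 libraries, named Control 1 to 3 and Halofuginone 2 to 4, and by the study's methods each was made from the midgut of a single bee. The study's methods state that bees of a given experiment came from the same colony, of outbred stock of mixed subspecies. They also state that independent trials used different colonies, and they name no colony for these libraries. The spread between libraries holds differences between bees together with those of dissection and library preparation.

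Hsp70-type chaperones, to which the Hsc70 proteins belong, bind exposed stretches of unfolded protein and release them in a cycle driven by ATP. Hsc70-4 does this for newly made proteins in the cytosol, where it also passes some of them on to Hsp90, which helps kinases, receptors and other signalling proteins reach their active form. Hsc70-3, known as BiP in mammals, acts inside the endoplasmic reticulum and is a classical target of the unfolded protein response (UPR), and Hsc70-5, known as mortalin in mammals, helps pull imported proteins into the mitochondrial matrix and fold them there. The midgut is the organ of digestion and secretes large amounts of enzyme, so its cells carry a heavy load of secretory protein.

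Values are normalised read counts, that is, reads per gene divided by 1 size factor per library. Total recovered reads lay between 23305398 and 26278866 per library and the size factors between 0.927 and 1.16. Each chaperone had between 5129 and 76169 reads in every library, so counting error was small beside the spread between libraries. The 10 most abundant genes took 22.6% to 32.0% of the reads. The tissue was checked by gene symbols of midgut and of other tissues. Hbg2, a carbohydrate-digesting alpha-glucosidase, stood at 709168 ± 202164 normalised counts (SD, n = 3) among controls and 630971 ± 42083 with halofuginone. Its relative Hbg3 stood at 1594 ± 310 and 533 ± 70.6, with a log2 fold change of −1.57 (limma, adjusted p = 0.00856). Hbg2 and Hbg3 were the 2 of 7 listed midgut marker symbols that were found, and 1 of the 2 passed, lower after halofuginone. The tissue in which either gene works was not checked here, and a difference in midgut content between the groups was not tested. The summed level of 5 muscle genes ranged from 5105 to 8440 in the controls and from 4473 to 8159 after halofuginone, that of 5 fat body genes from 735 to 973 and from 453 to 721, that of 2 royal jelly protein genes from 1622 to 3140 and from 1562 to 2577, and that of 4 nervous tissue genes from 1373 to 1634 and from 614 to 1386. None of these 16 genes passed an adjusted p of 0.05, and none of the 18 was at 0 in all libraries. The fat body sums did not overlap between the groups, and their part in the results below was not tested.

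Hsc70-5, the mitochondrial chaperone, was the 1 gene of the 4 whose transcript level was called different, and it was 2.33-fold higher in the halofuginone group. Hsc70-3, Hsc70-4 and Hsp90 did not pass the test and had fold changes below 0 on the log2 scale. The comparison was made with limma on log2(normalised count + 1) over all genes. Calling a gene required that its p, adjusted by Benjamini-Hochberg, was under 0.05 and that its log2 fold change exceeded 1 in size. The background was 2.37%, the share of all 10041 genes called in this way. The median log2 fold change of the 4 chaperones was −0.27, beside −0.01 over all genes.

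The Hsc70-5 level was 5859, 5441 and 5263 normalised counts in Control 1, 2 and 3, and 11521, 13765 and 13364 in Halofuginone 2, 3 and 4. The groups lay well apart, with the lowest halofuginone library far above the highest control. The mean (± SD, n = 3) was 5521 ± 306 for the controls and 12883 ± 1197 for halofuginone. limma gave a log2 fold change of 1.22 ± 0.12 (SE, 95% interval 0.93 to 1.51) with an adjusted p of 0.00692. An exact two-sided permutation test of this gene alone gave p = 0.1, the smallest that 3 libraries against 3 can reach. The adjusted p was 0.0511 without Control 3, with a log2 fold change of 1.19, and over the 19 alternative settings the log2 fold change lay between 1.17 and 1.31 and the adjusted p between 2.72e-16 and 0.0668. In whole midguts more transcript per cell cannot be told apart from more cells of a type that holds the transcript.

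**Figure D1:**
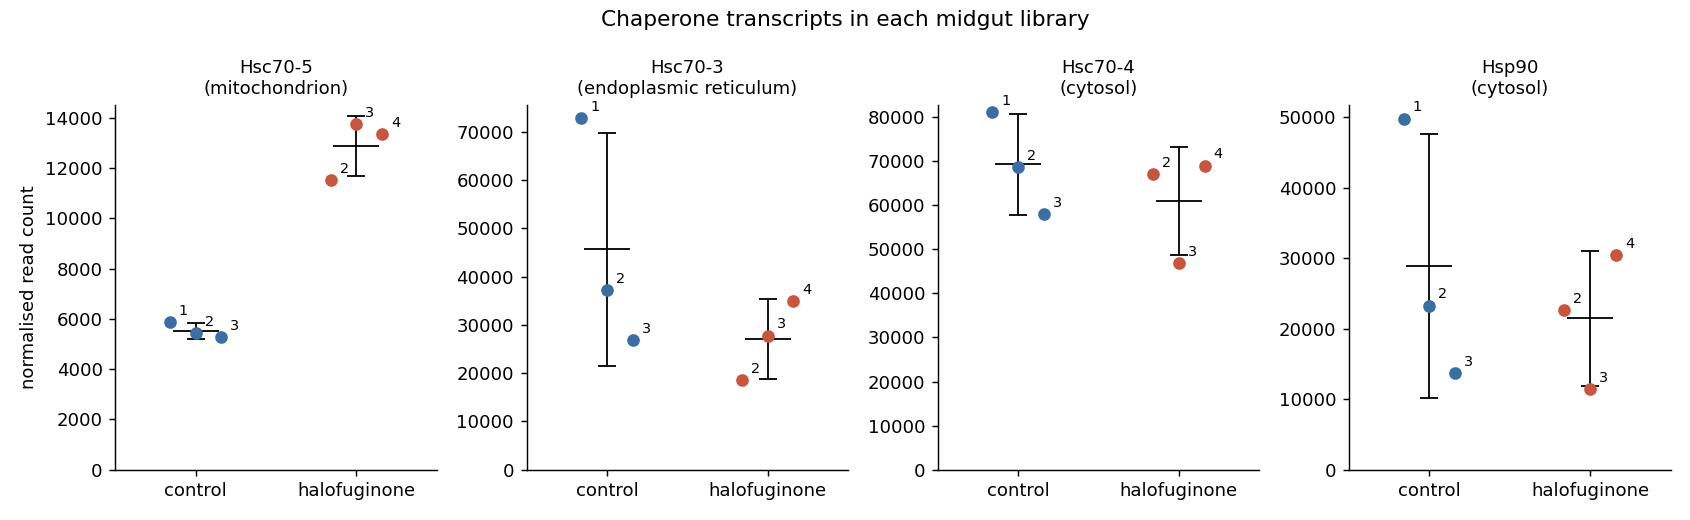
Normalised read counts (linear axis from 0) of the 4 chaperone genes in each library. Points are libraries, numbered as in the text, and the horizontal line and bars give the mean and SD of 3 libraries. Only for Hsc70-5 do the groups lie apart, from 5263 to 5859 in the controls and from 11521 to 13765 after halofuginone.

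Hsc70-3, the chaperone of the endoplasmic reticulum, stood at 72873, 37253 and 26805 normalised counts in Control 1, 2 and 3, and at 18496, 27776 and 34866 in Halofuginone 2, 3 and 4. The groups overlapped, since Control 3 lay below Halofuginone 3 and 4, and Control 1 was far above every other library. The mean (± SD, n = 3) was 45643 ± 24153 for the controls and 27046 ± 8210 for halofuginone, with a log2 fold change of −0.67 ± 0.40 (SE, 95% interval −1.62 to 0.27, limma, adjusted p = 0.36). The exact permutation p was 0.3. Without Control 1 the log2 fold change was −0.27, and without Control 3 it was −0.99, and neither passed the adjusted threshold. The interval holds falls beyond the fold threshold as well as small rises, so these libraries do not settle whether Hsc70-3 changed.

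Hsc70-4, the cytosolic Hsp70-type chaperone, varied least among the 3 genes that were not called. Its level was 81122, 68617 and 58055 normalised counts in Control 1, 2 and 3, and 67002, 46857 and 69017 in Halofuginone 2, 3 and 4. Halofuginone 2 and 4 lay inside the range of the controls and Halofuginone 3 below it. The mean (± SD, n = 3) was 69265 ± 11547 for the controls and 60959 ± 12254 for halofuginone, with a log2 fold change of −0.19 ± 0.24 (SE, 95% interval −0.76 to 0.38, limma, adjusted p = 0.685, exact permutation p = 0.5). The log2 fold change stayed below 0 whichever library was left out, between −0.31 and −0.01.

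Hsp90, the second cytosolic chaperone, stood at 49787, 23258 and 13686 normalised counts in Control 1, 2 and 3, and at 22615, 11407 and 30406 in Halofuginone 2, 3 and 4. Libraries of both groups were mixed, with the highest value in Control 1 and the lowest in Halofuginone 3. The mean (± SD, n = 3) was 28910 ± 18703 for the controls and 21476 ± 9551 for halofuginone, and the log2 fold change was −0.34 ± 0.53 (SE, 95% interval −1.58 to 0.90, limma, adjusted p = 0.748, exact permutation p = 0.7). No direction can be given for Hsp90, because the log2 fold change was 0.16 without Control 1 and 0.06 without Halofuginone 3.

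**Figure D2:**
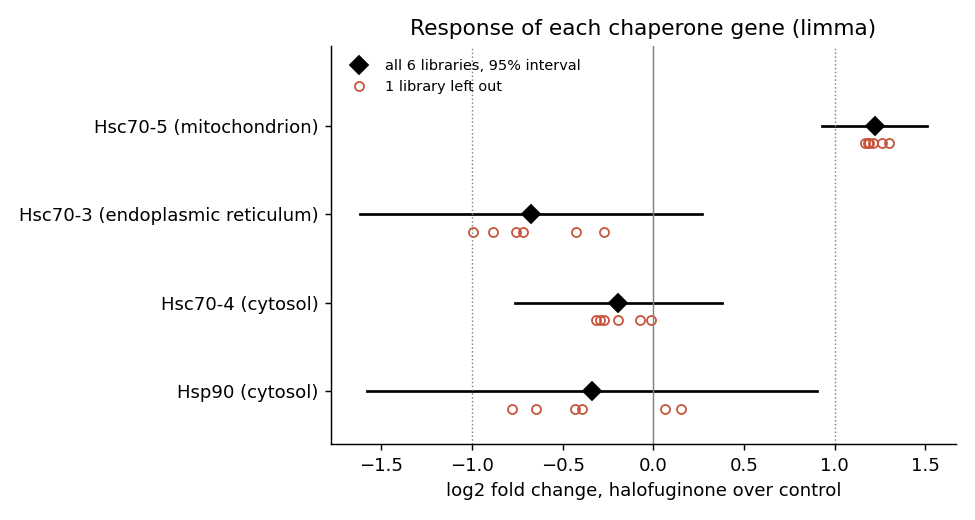
Log2 fold change of each chaperone gene, halofuginone over control, from limma. Diamonds and lines are the estimate and 95% interval from all 6 libraries, open circles are estimates with 1 library left out, and dotted lines mark the fold threshold of 1. Hsc70-5 stays between 1.17 and 1.30 when a library is left out, whereas the Hsp90 estimates lie on both sides of 0.

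To count how far the groups were parted, the libraries were also compared by rank alone. The groups did not overlap for 1 of the 4 chaperones, Hsc70-5, and the background for this count was 30.6%, the share of all genes whose groups did not overlap.

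Next, the chaperones were set against each other within each library. A ratio of 2 genes in the same library does not depend on how the libraries were scaled, and it is not a comparison of their levels, because transcript lengths were not used. In the controls there were 8.04, 14.6 and 19.6 Hsc70-5 reads per 100 Hsc70-3 reads (Control 1, 2 and 3), and after halofuginone there were 62.3, 49.6 and 38.3 (Halofuginone 2, 3 and 4). The lowest halofuginone value was well above the highest control value, and the share of all genes for which such ratios lay apart was not counted. The mean went from 14.1 ± 5.81 to 50.1 ± 11.99 (SD, n = 3), a 3.72-fold difference between the geometric means, as are the folds of the ratios that follow. After halofuginone the mean of Hsc70-5 was higher and that of Hsc70-3 lower, and the latter did not pass its own test.

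The ratio to the cytosolic Hsc70-4 was the least variable among the controls. It was 7.22, 7.93 and 9.07 Hsc70-5 reads per 100 Hsc70-4 reads in Control 1, 2 and 3, and 17.2, 29.4 and 19.4 in Halofuginone 2, 3 and 4. The groups again did not overlap, with no share over all genes counted, and Halofuginone 3 was the highest library. The mean went from 8.07 ± 0.930 to 22.0 ± 6.50 (SD, n = 3), a 2.66-fold difference. Against Hsp90 there were 11.8, 23.4 and 38.5 Hsc70-5 reads per 100 in Control 1, 2 and 3 and 50.9, 121 and 44.0 in Halofuginone 2, 3 and 4. Here the gap was narrow, with Control 3 close under Halofuginone 4. The mean went from 24.5 ± 13.4 to 71.9 ± 42.4 (SD, n = 3), a 2.94-fold difference.

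**Figure D3:**
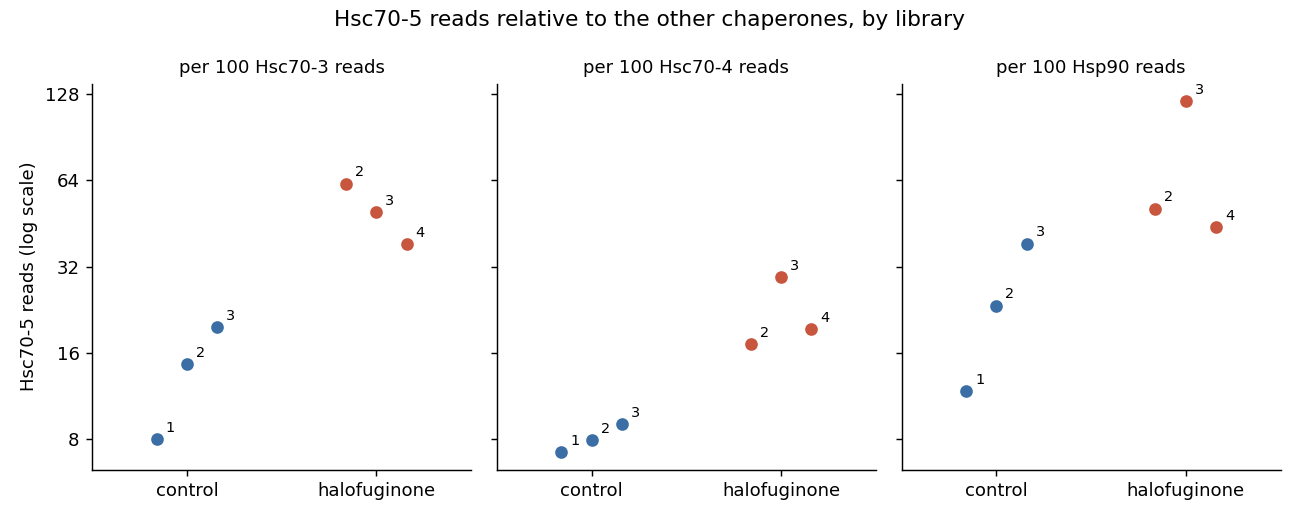
Hsc70-5 reads per 100 reads of Hsc70-3, Hsc70-4 or Hsp90 in each library, on a log scale. Points are libraries, numbered as in the text. The groups lie apart in all 3 panels, widely for Hsc70-3 (8.04 to 19.6 against 38.3 to 62.3) and narrowly for Hsp90 (11.8 to 38.5 against 44.0 to 121). The panels share Hsc70-5, whose own groups lie apart, and are not independent. The share of all genes whose ratio to the same reference lies apart was not counted.

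The difference in response between pairs of chaperone genes was tested on these ratios. A single gene does not stand for its whole compartment. For each reference gene limma was run on the log2 values of all other genes minus that of the reference, with Benjamini-Hochberg adjustment over 10040 genes. Relative to Hsc70-4, Hsc70-5 differed between the groups by 1.41 ± 0.29 on the log2 scale (SE, 95% interval 0.79 to 2.03, adjusted p = 0.0210), where the background of genes that passed was 2.04%. Relative to Hsc70-3 the difference was 1.89 ± 0.61 (SE, 95% interval 0.70 to 3.09) and did not pass, with an adjusted p of 0.0950 and a background of 1.29%. Relative to Hsp90 it was 1.56 ± 0.80 (SE, 95% interval −0.01 to 3.13) and did not pass either, with an adjusted p of 1.00 and a background of 0.189%. The error of the reference gene enters every gene of such a fit, so the genes are not independent of each other. For the variable references Hsc70-3 and Hsp90 limma pooled the error across all genes, so these SEs, intervals and p-values are approximate. The ordinary SE from the pair's own ratios was 0.43 for Hsc70-5 relative to Hsc70-3 and 0.67 relative to Hsp90. The call relative to Hsc70-4 was lost without Halofuginone 3 (adjusted p = 0.0584) and when limma was run without a variance trend (adjusted p = 0.107), and that relative to Hsc70-3 was gained without Control 3 (adjusted p = 0.0368).

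Exact two-sided permutation tests were run on all 6 ratios that 4 genes allow. The 3 ratios with Hsc70-5 each gave an exact p of 0.1, the smallest possible, and 0.2 after Benjamini-Hochberg adjustment over the 6. They share Hsc70-5, whose own groups lay apart, so they are not independent of each other. The share of all genes whose ratio to the same reference lay apart was not counted. The 3 ratios without Hsc70-5 overlapped between the groups. Hsc70-3 relative to Hsc70-4 differed by −0.48 (95% interval −1.28 to 0.31, exact permutation p = 0.5), Hsc70-3 relative to Hsp90 by −0.34 (95% interval −1.94 to 1.27, exact permutation p = 0.5) and Hsp90 relative to Hsc70-4 by −0.15 (95% interval −0.94 to 0.65, exact permutation p = 0.9). The interval of Hsc70-3 relative to Hsp90 rests on an error pooled across all genes, and the ordinary SE from its own ratios was 0.48. These wide intervals do not show that the chaperones of the endoplasmic reticulum and the cytosol responded alike.

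The libraries of a single group also differed from each other, by an amount that varied with the gene and did not follow the compartment. Among the controls the highest library exceeded the lowest 3.64-fold for Hsp90, 2.72-fold for Hsc70-3, 1.40-fold for Hsc70-4 and 1.11-fold for Hsc70-5, and among the halofuginone libraries these ratios were 2.67, 1.89, 1.47 and 1.19. The wide spans of Hsp90 and Hsc70-3 among the controls rested on Control 1, and without it they were 1.70-fold and 1.39-fold. Among the halofuginone libraries, the Hsp90 span was 1.34-fold without Halofuginone 3 and the Hsc70-3 span 1.26-fold without Halofuginone 2. Hsc70-5 was nearly level within each group. The pooled within-group SD on the log2 scale was 0.84 for Hsp90, 0.61 for Hsc70-3, 0.28 for Hsc70-4 and 0.11 for Hsc70-5, beside a median of 0.21 over the 7477 genes with a mean of at least 100 normalised counts. By this SD, Hsp90 stood at percentile 96.9 of those genes, Hsc70-3 at 93.4, Hsc70-4 at 68.5 and Hsc70-5 at 15.6.

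**Figure D4:**
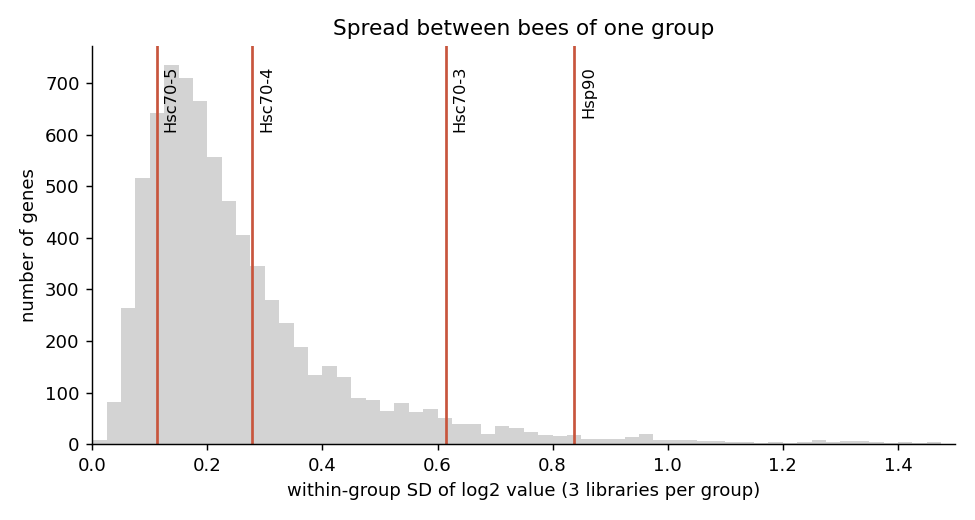
Number of genes by the pooled within-group SD of their log2 values (3 libraries per group), for the 7477 genes with a mean of at least 100 normalised counts, with the 4 chaperones as vertical lines. The axis ends at 1.5, which leaves 53 genes undrawn. Hsc70-5 (0.11) lies on the low side of the distribution, and Hsc70-3 (0.61) and Hsp90 (0.84) lie in its upper tail.

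All 4 genes had the same order among the controls, with Control 1 highest, Control 2 next and Control 3 lowest. Among the halofuginone libraries the order parted by gene. Halofuginone 4 was highest for Hsp90, Hsc70-4 and Hsc70-3, whereas Halofuginone 3 was highest for Hsc70-5 and lowest for both cytosolic chaperones, and Halofuginone 2 was lowest for Hsc70-3 and Hsc70-5. With log2 values centred on each gene's mean, the root-mean-square difference over the 6 libraries was 0.48 between Hsp90 and Hsc70-4, 0.51 between Hsp90 and Hsc70-3 and 0.50 between Hsc70-3 and Hsc70-4. From Hsc70-5 the difference was larger, at 1.03 to Hsp90, 1.04 to Hsc70-3 and 0.75 to Hsc70-4. The profiles span both groups, so these distances include the difference of Hsc70-5 between groups and are not separate evidence. Among 7476 other genes ranked by closeness to Hsp90, Hsc70-4 was at rank 70, Hsc70-3 at rank 126 and Hsc70-5 at rank 6917. By closeness to Hsc70-3, Hsc70-4 was at rank 1016 and Hsp90 at rank 1093. By closeness to Hsc70-4, Hsp90 was at rank 5796 and Hsc70-3 at rank 6034, so most genes lay closer to Hsc70-4 than these chaperones did.

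The same measure was used to find the 3 genes closest to each chaperone, as a description with no test. The closest to Hsc70-5 were LOC551916, LOC410039 and LOC725378, at 0.053, 0.073 and 0.079, and LOC551916 stood at 4194, 3913 and 3426 normalised counts in Control 1, 2 and 3 and at 8184, 9865 and 9705 in Halofuginone 2, 3 and 4. Their log2 fold changes were 1.27, 1.21 and 1.24, close to that of Hsc70-5 as the choice requires. The closest to Hsp90 were LOC551046 at 0.092, LOC411700 at 0.18 and LOC550918 at 0.32. LOC551046 followed Hsp90 from library to library, at 1396, 682 and 459 normalised counts in Control 1, 2 and 3 and at 706, 372 and 892 in Halofuginone 2, 3 and 4. Hsc70-3 was followed by LOC412526 at 0.14, LOC552223 at 0.17 and LOC552645 at 0.18, and Hsc70-4 by LOC107965657 at 0.075, LOC551918 at 0.077 and SPG11 at 0.081. None of the genes closest to Hsp90, Hsc70-3 or Hsc70-4 passed an adjusted p of 0.05. That too follows largely from the choice, since these chaperones did not pass either.

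Other genes of each compartment were then examined, as far as their symbols name them. Of 17 mitochondrial genes, which encode parts of the respiratory chain, carriers, metabolic enzymes and the mitochondrial translation machinery, 1 passed an adjusted p of 0.05 and was higher, and none was lower, where the backgrounds over all genes were 4.63% higher and 2.25% lower and 6.88% in either direction. The median log2 fold change of the 17 was 0.03, with 10 above 0 and 7 below. The gene that passed was CytC, which carries the symbol of cytochrome c, the small electron carrier between respiratory complexes. CytC stood at 6720, 4161 and 4122 normalised counts in Control 1, 2 and 3 and at 14991, 20075 and 15984 in Halofuginone 2, 3 and 4, so the groups were far apart. Its mean (± SD, n = 3) was 5001 ± 1489 for the controls and 17017 ± 2695 for halofuginone, and limma gave 1.79 ± 0.22 (SE) on the log2 scale (adjusted p = 0.00957).

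The other 16 mitochondrial genes did not pass. Ant, which exchanges ADP and ATP across the inner membrane, had a log2 fold change of 0.11 (adjusted p = 0.778), ATP5G2, a subunit of ATP synthase, of 0.01 (adjusted p = 0.986), and the translation factor IF-2mt of −0.17 (adjusted p = 0.546). Tom7, a small subunit of the pore through which proteins enter the mitochondrion before Hsc70-5 takes hold of them, was at 1126 ± 88.9 normalised counts (SD, n = 3) among controls and 1173 ± 235 with halofuginone, a log2 fold change of 0.04 (adjusted p = 0.917). The groups did not overlap for PDHB, a subunit of pyruvate dehydrogenase, and for Pet117, but their log2 fold changes of 0.40 and 0.46 did not pass (adjusted p = 0.136 and 0.191). With CytC, the groups did not overlap for 3 of the 17 mitochondrial genes (17.6%), a smaller share than the 30.6% of all genes.

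In the endoplasmic reticulum, 3 further genes could be named, and none passed. Their log2 fold changes were −0.80 ± 0.24 for Ppib, a folding enzyme that isomerises proline bonds (SE, adjusted p = 0.101), −0.41 ± 0.14 for STT3B, the catalytic subunit of an enzyme that attaches sugar chains (adjusted p = 0.134), and −0.41 ± 0.16 for the transporter gene Slc35b1 (adjusted p = 0.172). For each of them every halofuginone library lay below every control library. Ppib, for example, was at 10551, 8133 and 9203 normalised counts in Control 1, 2 and 3 and at 4358, 4425 and 7802 in Halofuginone 2, 3 and 4. The groups thus did not overlap for 3 of 3 genes, beside 30.6% of all genes, and nothing is read from so short a list.

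Of the cytosolic partners of Hsp90, Cdc37 and PIH1D1 could be named, and neither passed. Cdc37, which brings kinases to Hsp90, was at 5900, 4377 and 4093 normalised counts in Control 1, 2 and 3 and at 3197, 2563 and 3511 in Halofuginone 2, 3 and 4. All halofuginone libraries were below all controls, but the log2 fold change of −0.63 ± 0.18 (SE) had an adjusted p of 0.0902. PIH1D1, part of a complex that works with Hsp90, differed by 0.31 ± 0.15 (SE) on the log2 scale (adjusted p = 0.256). For PIH1D1 all halofuginone libraries were above all controls. The groups thus did not overlap for 2 of 2 partners, in opposite directions, beside 30.6% of all genes, and nothing is read from so short a list. Of the 9 small heat shock protein genes named in the study, chaperones that hold unfolded proteins without using ATP, 4 passed the adjusted p and all 4 were higher, beside 4.63% of all genes, and the log2 fold changes of the 9 ran from −0.65 to 5.06.

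**Figure D5:**
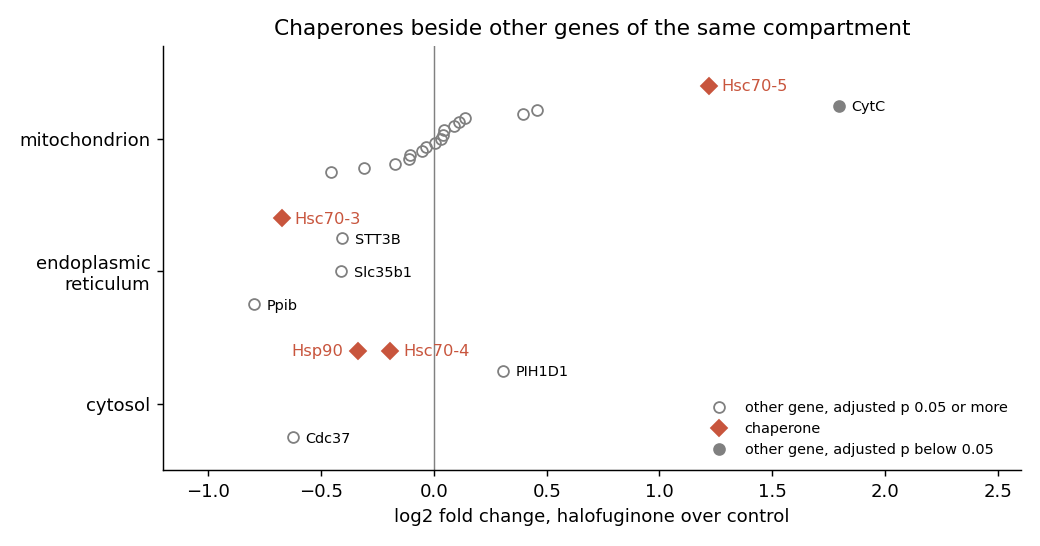
Log2 fold change, halofuginone over control, of the 4 chaperones (diamonds) and of the other named genes of the same compartment (circles, filled at an adjusted p below 0.05). The vertical position within a compartment only separates the points. Hsc70-5 (1.22) and CytC (1.79) stand to the right of the other mitochondrial genes, which lie between −0.46 and 0.46, and the 3 endoplasmic reticulum genes lie between −0.80 and −0.41.

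Hsp70-type genes resemble each other in sequence, and the sources used here do not say how reads that map to several genes were counted. A part of the reads of 1 Hsc70 gene may therefore be counted for another. In the gene order of assembly Amel_HAv3.1, no annotated gene overlapped any of the 4 chaperone genes. The neighbours of Hsc70-5, LOC724541 and LOC551732, had log2 fold changes of −0.05 and −0.11 (limma, adjusted p = 0.899 and 0.778). Next to Hsc70-3, LOC413708 rose from a mean of 883 to 1509 normalised counts, a difference of 0.76 ± 0.17 (SE) on the log2 scale (adjusted p = 0.0468) that was under the fold threshold, and LOC724212 on the other side was near 29 in both groups. The neighbours of Hsc70-4, LOC409417 and LOC727596, and the 1 neighbour of Hsp90 in the tables, LOC552259, did not pass (adjusted p = 0.175, 0.548 and 0.161).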

How the data were processed

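Per the study's methods and the labels, NEBNext Ultra libraries were sequenced as pairs of 150 bp on an Illumina HiSeq, trimmed, mapped to Amel 4.5 and counted per gene. The submitters' processing notes name Trimmomatic (0.36), STAR, Subread and DESeq2. The strand setting was not given in the sources used here. The authors deposited a normalised signal, reads divided by 1 size factor per library, in 3 tables of a control and a halofuginone column, with 0 columns unused. Whole reads were recovered for 100% of values (tolerance 0.01 reads), the lowest gene total was 61 reads, and no pair of libraries agreed within sampling noise.

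limma (3.58.1, R 4.3.3) with a variance trend was run on log2(value + 1), which understates changes of low genes. DESeq2 (1.42.0), edgeR (4.0.16) and limma-voom on recovered reads, other scalings, a filter, pseudocounts, blocks and left-out libraries were alternatives. The fit was first tested on simulated data in which all genes had the same dispersion (spread beyond counting error). That test does not cover genes as variable as Hsp90. Named genes were the 4 chaperones, the 3 genes closest to each among genes with a mean of at least 100, chaperones by symbol, the small heat shock genes, the marker genes and neighbours. The compartment lists were chosen from symbols after the tables were opened, and all members and lists were chosen with earlier results of these data known. Of the 10041 genes, 9740 carry only a LOC symbol, so most chaperones could not be named. The symbols Stip and Grp were left out because their roles were unsure. No coordinates are printed, because the gene table is of Amel_HAv3.1.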

Additional observations from a re-analysis of the deposited data

How the results depend on the processing

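The Hsc70-5 call was lost in 3 of its 19 alternatives. With the replicate block, over the 2 shared numbers (replicates 2 and 3), the log2 fold change was 1.23 (limma, adjusted p = 0.0668), with the deposited table as a block 1.22 (0.0628), and without Control 3 1.19 (0.0511). When a library was left out it lay between 1.17 and 1.30. The labels do not say whether libraries with the same number were handled together. Their deviations from the group means correlated at 0.07 and −0.03, which does not settle it. Over these 4 libraries without the block the adjusted p was 0.0358. Hsc70-3 and Hsc70-4 were not called in any alternative and stayed below 0, and with a library left out Hsp90 lay between −0.78 and 0.16.

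For the ratios, Hsc70-5 relative to Hsc70-4 was 1.41 and no longer passed without a variance trend (adjusted p = 0.107), and lay between 1.18 and 1.57 with a library left out. Relative to Hsc70-3 it lay between 1.54 and 2.18, and relative to Hsp90 it passed with the replicate block at 1.39 (0.00318), a fit with 1 residual degree of freedom, whereas the same 4 libraries without the block gave 1.39 with an adjusted p of 1.00. Hsc70-3 relative to Hsp90 ran from −0.78 to 0.0077 and Hsp90 relative to Hsc70-4 from −0.46 to 0.23 with a library left out, and the latter was 0.020 over replicates 2 and 3 with or without the replicate block. The ratios without Hsc70-5 passed in no alternative.

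Over all genes 238 were called, 385 with DESeq2, 691 by the adjusted p alone, 3 with the replicate block, 203 over the same 4 libraries without it, and 7 with the table block. With a library left out the number ran from 47 (without Control 3) to 277, and was 63 without Control 2 and 126 without Halofuginone 4. The causes of these changes were not tested. The order of the 4 levels was not run, because no transcript lengths were used here.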
